A study of Mus musculus with 22 samples.

Results

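The distal 5 Mb of each mouse autosome was described in the cortex, olfactory bulb and cerebellum as the bins that start within 5 Mb of the end of the last bin with a level above 0. By this rule 95 of 2470 autosomal bins of 1 Mb belonged to the distal 5 Mb for 5-hydroxymethylcytosine (5hmC), 5 on each of 19 autosomes. For 5-methylcytosine (5mC) it took 950 of 24618 autosomal bins of 100 kb, 50 on each autosome. All 95 and all 950 lay above 0 and below 1 in every library and were used. They were compared with the other bins of the same autosomes, of which 2318 of 2375 and 23061 of 23668 passed that filter. The rule used position and no measured level beyond the last bin above 0.

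Both marks were profiled in whole cerebral cortex without the hippocampus, whole olfactory bulb and whole cerebellum of female C57BL/6 mice aged 8 weeks. TAB-seq reads 5hmC alone, because 5hmC is shielded with glucose while 5mC is oxidized before bisulfite treatment, and 3 libraries were made from each tissue. oxBS-seq reads 5mC alone, because 5hmC is oxidized first and then converted like unmodified cytosine, and 3 cortex, 2 olfactory bulb and 2 cerebellum libraries were made. Replicates came from independent mice according to the labels. Levels are the fraction of modified reads, from 0 to 1, and the depth behind each bin is unknown, so the SD between libraries is the only error given. Each tissue is a mixture of cells, and a different share of a cell type and a different level within cells cannot be told apart.

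Mouse chromosomes carry the centromere at the low-numbered end, so each autosome has 1 end at which genes run out into the telomere, a repeat of TTAGGG copied by telomerase. 5mC is written mainly at CpG sites and is high over most of the genome but low at CpG-dense active promoters. TET enzymes oxidize 5mC to 5hmC, which is abundant in neurons and is found above all over the bodies of expressed genes.

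The last assembled bases were read first, to check that the bins reach the chromosome ends. On 18 of 19 autosomes the mm10 sequence closed in TTAGGG units within its last 180 bases, and on chromosome 4 it held none there. The longest run of units in the distal 5 Mb ranged from 6 on chromosome 9 to 88 on chromosome 7. The plus strand of the end without the repeat, on chromosome 4 (chr4:156357937-156358116), is shown because it alone departs from the other ends, and it holds no capitals since no unit was found.
chromosome 4: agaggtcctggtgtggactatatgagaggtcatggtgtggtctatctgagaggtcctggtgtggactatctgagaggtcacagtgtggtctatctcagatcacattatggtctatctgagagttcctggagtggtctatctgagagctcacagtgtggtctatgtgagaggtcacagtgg

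Degenerate copies of the repeat were not searched for. A run of at least 2 TTAGGG units on either strand was found in 140 of 950 distal 100 kb bins (14.7%), in 52 of the 190 within the outermost 1 Mb (27.4%) and in 949 of the 23061 other bins (4.12%). An unassembled gap closes each chromosome, and the last bins are therefore partial. The last 100 kb bin held 1213 to 94993 assembled bases, the fewest on chromosome 8, and the last 1 Mb bin held 13224 to 982543.

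On average over autosomes, the distal 5 Mb had more gene cover and CpG sites than the rest, while its outermost 1 Mb was poorer in CpG sites. Counted over 1 Mb bins, CpG density was higher at 12 of 19 ends and gene cover at 13. Starts of protein-coding genes were denser at 9 ends and sparser at 10. In the 1 Mb bins GC content averaged 43.5% ± 3.71 (SD over 19 autosomes) against 41.9% ± 0.81, and CpG density 9.31 ± 2.90 against 8.54 ± 0.621 sites per kb. Genes covered 53.4% ± 14.1 of distal assembled bases and 48.5% ± 3.69 of the rest. The outermost 1 Mb held 7.20 ± 2.63 CpG sites per kb and 43.2% ± 12.7 repeats, with a gene cover of 48.0% ± 21.6, while the next 4 Mb held 9.83 ± 3.16 sites per kb and 29.4% ± 5.76 repeats. These are properties of the reference and carry no test.

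5mC was lower in the distal 5 Mb than in the rest of the same autosomes in all 7 oxBS-seq libraries. The distal level, averaged over 19 autosomes, was 0.652, 0.657 and 0.629 in the 3 cortex libraries, 0.680 and 0.674 in the olfactory bulb, and 0.704 and 0.687 in the cerebellum. Tissue means were 0.646 ± 0.0148 (SD, n = 3) against 0.675 ± 0.0148 for the rest in cortex, 0.677 ± 0.00402 (n = 2) against 0.705 ± 0.00300 in olfactory bulb, and 0.696 ± 0.0115 (n = 2) against 0.733 ± 0.0115 in cerebellum. The shortfall within a library was larger than its spread between libraries in every tissue, at -0.0286 ± 0.000973, -0.0283 ± 0.00102 and -0.0375 ± 0.0000486 respectively. Over the 7 libraries it was -0.0311 ± 0.00445, with p = 0.0156 in a two-sided exact sign-flip permutation test, the smallest that 7 libraries can give. With GC content, CpG density and gene cover removed by a linear fit on the other bins, the shortfall was -0.0139 with the same exact p of 0.0156.

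Against the rest, 5hmC of the distal bins differed little in cortex and olfactory bulb and was higher in cerebellum. The 5 distal bins of 1 Mb per autosome end in a partial bin, so their stretch can differ from that of the 50 bins of 5mC. On chromosome 2 they start at 178000001, while chr2:177600001-177700000 is a distal 5mC bin. The distal level was 0.169, 0.181 and 0.161 in the cortex libraries, 0.150, 0.157 and 0.150 in the olfactory bulb libraries, and 0.107, 0.107 and 0.110 in the cerebellum libraries. Distal minus rest was 0.000609 ± 0.000767 in cortex, where 2 of 3 libraries lay above 0, 0.00116 ± 0.000250 in olfactory bulb and 0.00927 ± 0.000180 in cerebellum. The 9 libraries together gave 0.00368 ± 0.00422 (8 of 9 above 0, two-sided exact sign-flip permutation p = 0.00781). This mean was carried in part by chromosome 14, since without it the value was 0.000969 (exact permutation p = 0.352), and it turned to -0.00294 (exact permutation p = 0.00781) when sequence and gene content were removed. It also depended on how far inward the window reached, from -0.0227 for the last 2 Mb to 0.0146 for the 5 Mb without the last bin of each autosome.

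The tissues kept one order of levels at the ends, which the rest of the same autosomes shared. In the rest, 5hmC differed from cortex by -0.0186 in olfactory bulb and -0.0709 in cerebellum. The rest differed from cortex in 5mC by 0.0305 and 0.0585, also without overlap between libraries. Distal 5hmC was highest in the cortex, with differences of -0.0181 in the olfactory bulb and -0.0623 in the cerebellum, and with no overlap between the libraries of any pair of tissues (two-sided exact permutation p = 0.1 each, the smallest that 3 against 3 can give). Distal 5mC ran the other way, 0.0308 higher in olfactory bulb and 0.0496 higher in cerebellum than in cortex, again without overlap (exact permutation p = 0.1 each, the smallest possible). The olfactory bulb and cerebellum differed by 0.0188, with an exact permutation p of 0.333 that 2 against 2 cannot go below, and by 0.0107 without cerebellum library 1. Distal minus rest of the cerebellum lay above both other tissues for 5hmC, by 0.00866 and 0.00811, and below both for 5mC, with differences of -0.00889 and -0.00918, also without overlap. With sequence and gene content removed these shrank to 0.00444 and 0.00383 for 5hmC and to -0.00324 and -0.00468 for 5mC, and the 5hmC difference from olfactory bulb was 0.00326 without the last bin of each autosome. Between olfactory bulb and cortex this difference overlapped for both marks (exact permutation p = 0.4 for 5hmC and 0.7 for 5mC).

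Adding both marks, the modified fraction of the distal 5 Mb was 0.818 ± 0.0181 in the cortex, 0.831 ± 0.00556 in the olfactory bulb and 0.805 ± 0.0117 in the cerebellum, where the error joins the SDs of the 2 assays. Against the rest it differed by -0.0263 ± 0.00128, -0.0249 ± 0.000685 and -0.0263 ± 0.000181. 5hmC made up 20.8% of the sum in distal cortex against 20.1% in the rest, 18.3% against 17.6% in olfactory bulb, and 13.4% against 11.9% in cerebellum. These sums come from separate libraries and were not tested.

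On average, 5hmC was low in the last 1 Mb bins, which are partial and hold 13224 to 982543 assembled bases. Each autosome counts equally in these means, whatever the size of its last bin. 5hmC in the outermost 1 Mb was 0.126 ± 0.00955 in the cortex, 0.0991 ± 0.00347 in the olfactory bulb and 0.0743 ± 0.00133 in the cerebellum, and in the next 4 Mb it was 0.181 ± 0.0106, 0.165 ± 0.00438 and 0.116 ± 0.00213. The outermost 1 Mb thus differed by -0.0552, -0.0662 and -0.0420, below 0 in 9 of 9 libraries, with a mean difference of -0.0545 ± 0.0106 (two-sided exact sign-flip permutation p = 0.00391, the smallest that 9 libraries can give). Moving inward from the partial bin by bins of 1 Mb, cortex read 0.126, 0.167, 0.175, 0.191 and 0.192, and then 0.178 from 5 to 10 Mb. The cerebellum reached 0.133 ± 0.00227 at 3 to 4 Mb, above the 0.107 ± 0.00223 of the stretch from 5 to 10 Mb. The difference between outermost and next bins remained at -0.0383 (exact permutation p = 0.00391) with GC content, CpG density and gene cover removed. That fit left out repeats, whose share had the strongest correlation with 5hmC over the other bins. Pearson's r there ranged from -0.807 (cortex) to -0.670 (cerebellum) for repeats, and from 0.493 (olfactory bulb) to 0.583 (cerebellum) for gene cover. Over the distal bins the ranges were -0.770 to -0.574 and 0.495 to 0.598. Whether the difference remains with repeats removed was not tested.

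**Figure D1:**
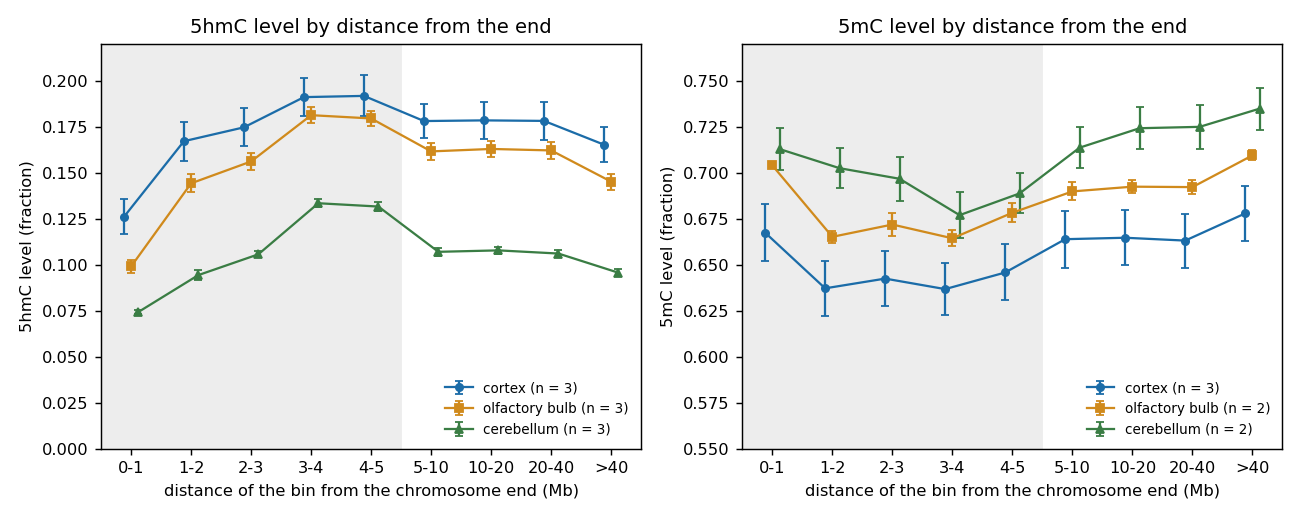
Mean 5hmC (1 Mb bins) and 5mC (100 kb bins) as fractions, against the distance of the bins from the chromosome end in Mb, for cortex, olfactory bulb and cerebellum; points are means over 19 autosomes and bars are SDs between libraries. 5hmC drops in the outermost 1 Mb in all 3 tissues, to 0.126, 0.0991 and 0.0743. 5mC reads 0.667, 0.704 and 0.713 over the outermost 1 Mb of its own 100 kb bins, a stretch unlike the partial 1 Mb bins.

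5mC went up toward the end, but its outermost 1 Mb is not the same stretch as that of 5hmC. For 5hmC it is 1 partial bin per autosome, with 13224 to 982543 assembled bases. For 5mC it is 190 bins of 100 kb over the 19 autosomes. 5mC in the outermost 1 Mb was 0.667 ± 0.0154 in the cortex, 0.704 ± 0.00121 in the olfactory bulb and 0.713 ± 0.0113 in the cerebellum. In the next 4 Mb it was 0.641 ± 0.0147, 0.670 ± 0.00472 and 0.691 ± 0.0115. All 7 libraries were higher in the outermost 1 Mb, by 0.0274 ± 0.00550 on average (two-sided exact sign-flip permutation p = 0.0156). With sequence and gene content removed the sign turned, to -0.0126 with the same exact permutation p. In steps of 100 kb the last bin read 0.733 ± 0.0226 in the cortex, 0.769 ± 0.00411 in the olfactory bulb and 0.772 ± 0.0104 in the cerebellum, the highest of the 50 steps in each tissue. By 0.6 to 0.7 Mb the levels were 0.623 ± 0.0156, 0.675 ± 0.00485 and 0.685 ± 0.0114.

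**Figure D2:**
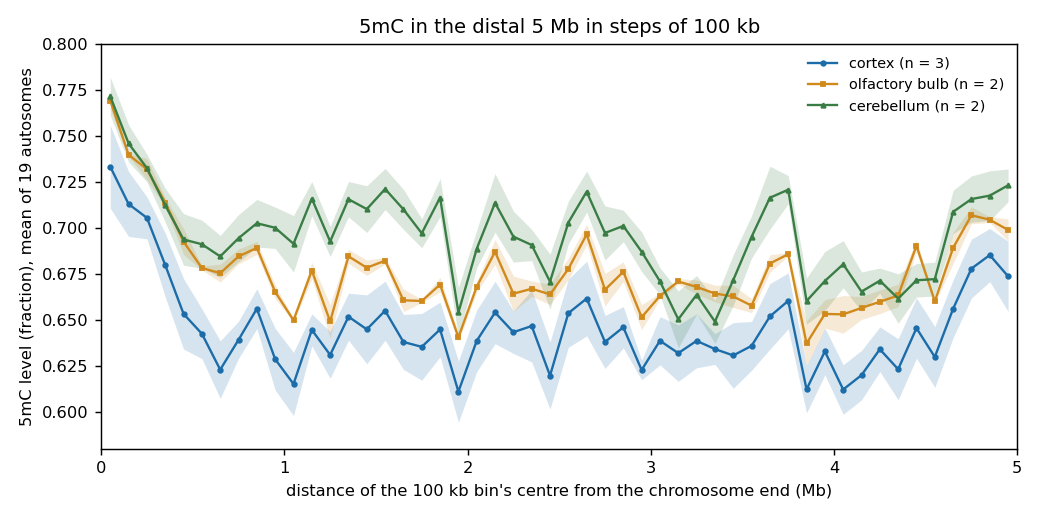
5mC level (fraction, mean of 19 autosomes) against the distance of each 100 kb bin's centre from the chromosome end in Mb, with 1 line per tissue and a band of 1 SD between libraries. Each tissue is highest in the last 100 kb, at 0.733, 0.769 and 0.772, and falls over the first 0.7 Mb inward.

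The distal 5 Mb also differed from the other end of the same chromosomes. Distal 5hmC exceeded the first 5 Mb beside the centromere by 0.0190 ± 0.00147 in 9 of 9 libraries (two-sided exact sign-flip permutation p = 0.00391), and distal 5mC differed from it by -0.0374 ± 0.00227, below 0 in 7 of 7 (exact permutation p = 0.0156). Averaged over all libraries, distal 5hmC lay above the first 5 Mb on 12 of 19 autosomes and distal 5mC on 4. Repeats covered 32.2% ± 5.91 of the distal bins and 39.7% ± 8.83 of the first 5 Mb. Against the adjoining 5 to 10 Mb, distal 5mC differed by -0.0166 ± 0.00254 (lower in 7 of 7 libraries, exact permutation p = 0.0156). Distal 5hmC differed from the same stretch by -0.00555 ± 0.00489 (exact permutation p = 0.0312). It was lower in every cortex and olfactory bulb library and higher by 0.000853 ± 0.000347 in cerebellum. Averaged over all libraries, the distal level lay above this stretch on 6 autosomes for 5hmC and on 4 for 5mC.

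The 19 ends were far from alike. For 5mC, 16 of 19 autosomes had a lower distal level in each tissue, 14 of them in every library, and chromosomes 17 and 18 were higher in every library. For 5hmC, 12 autosomes were higher at the end in the cortex, 11 in the olfactory bulb and 13 in the cerebellum, with 9 higher and 5 lower in all libraries. The SD over autosomes of the 5hmC difference was 0.0227 in the cortex, 0.0262 in the olfactory bulb and 0.0305 in the cerebellum, many times the SD between libraries of the mean. The outermost 1 Mb had less 5hmC than the next 4 Mb on 17, 19 and 15 autosomes. In the 100 kb bins it had more 5mC on 15, 16 and 12.

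**Figure D3:**
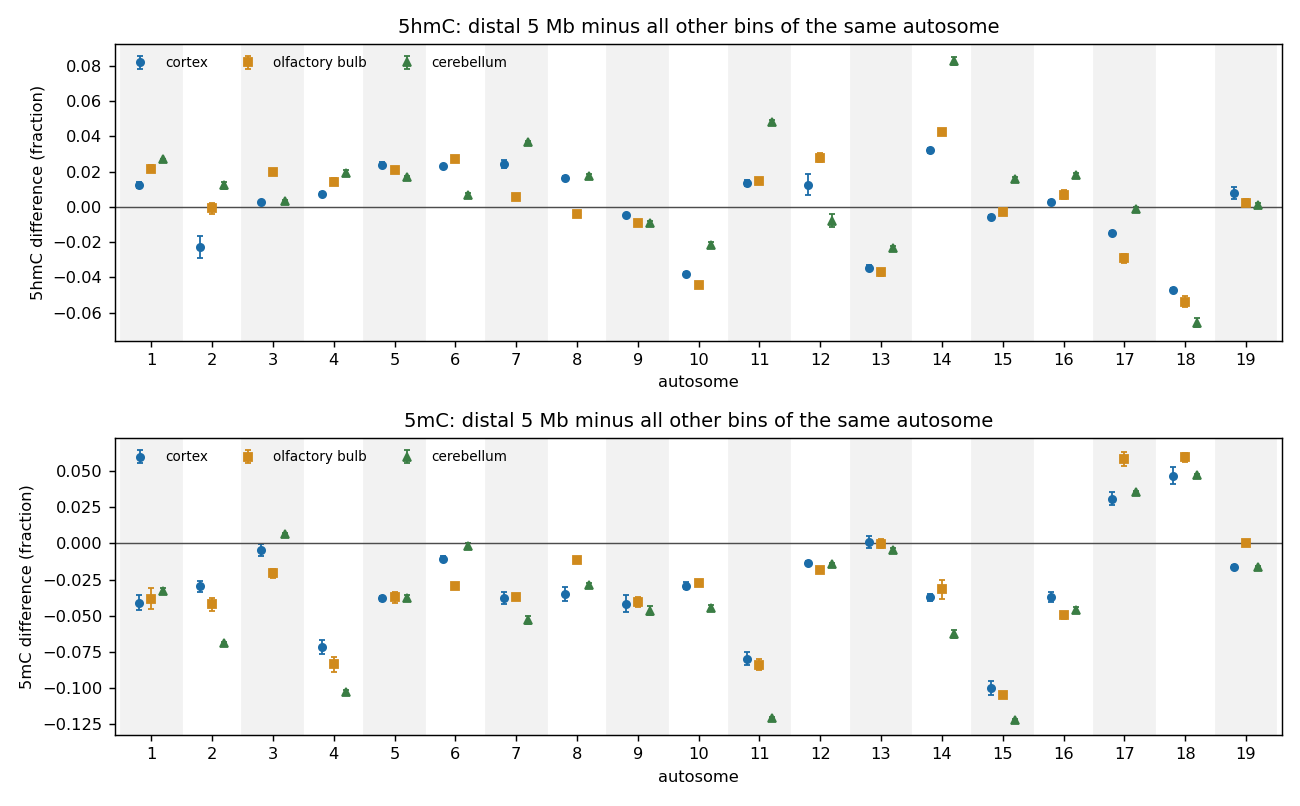
Distal minus rest of the same autosome (fraction) for 5hmC and 5mC on each of the 19 autosomes, with points for the tissue means and bars for the SD between libraries. 5mC lies below 0 on 16 autosomes in each tissue and above 0 on chromosomes 17 and 18, and 5hmC is highest on chromosome 14 and lowest on chromosome 18.

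Chromosome 14 had the largest 5hmC excess at its end, at 0.0322 ± 0.00142 in the cortex, 0.0426 ± 0.000863 in the olfactory bulb and 0.0826 ± 0.00215 in the cerebellum. Its distal bins lie over long neuronal genes such as Dock9, Nalcn and Fgf14, and genes covered a fraction of 0.751 of them against 0.454 of the rest of the chromosome. Chromosomes 11 and 7 followed, with means over tissues of 0.0254 and 0.0222. The lowest were chromosomes 18, 10 and 13, at -0.0556, -0.0348 and -0.0317. Chromosome 18 ends in a gene-poor stretch with a gene cover of 0.262, and its distal 5hmC in cerebellum was 0.0412 ± 0.000916 against 0.107 ± 0.00203 in its rest.

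For 5mC the order was set differently. Chromosome 15 had the lowest distal minus rest, with a distal level of 0.579 ± 0.0152 against 0.679 ± 0.0148 in cortex and 0.623 ± 0.0111 against 0.745 ± 0.0118 in cerebellum. Chromosomes 11 and 4 came next, with means over tissues of -0.0948 and -0.0858. These 3 ends were dense in CpG sites, with 13.0, 14.3 and 15.1 per kb. Chromosomes 18 and 17 stood at the other extreme, at 0.0510 and 0.0416, with 5.01 and 4.87 sites per kb, and chromosome 13 lay between at -0.0013.

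Across the 19 autosomes the distal minus rest of 5mC moved with that of CpG density, with Pearson's r of -0.905 in the cortex, -0.897 in the olfactory bulb and -0.898 in the cerebellum (Spearman's rho -0.832, -0.888 and -0.840). The distal minus rest of 5hmC moved with gene cover, with r of 0.762, 0.799 and 0.693 (rho 0.698, 0.712 and 0.609). The points share the same libraries and one reference, and the values are a description. Within the distal 5 Mb, 5mC of 950 bins correlated with CpG density at -0.565, -0.573 and -0.569, and over the 23061 other bins at -0.644, -0.647 and -0.659. The part of sequence content in the distal differences was examined only by the linear fit given above, which left out repeats.

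**Figure D4:**
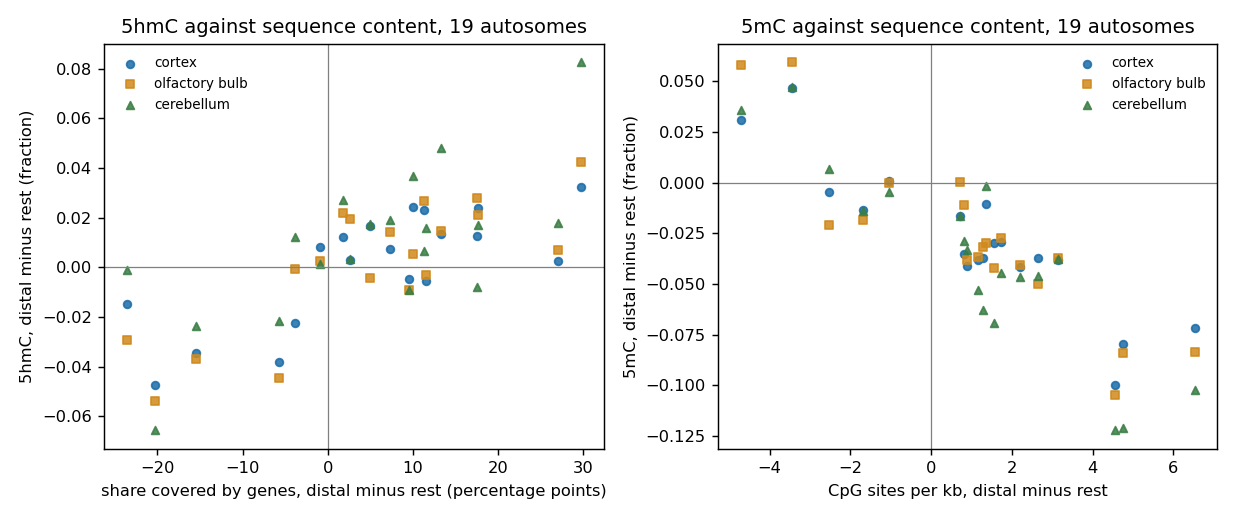
Distal minus rest of 5hmC (fraction) against that of the share of bases covered by genes (percentage points), and of 5mC against that of CpG sites per kb, with 1 point per autosome and tissue. Ends that gain gene cover lie higher for 5hmC (r 0.693 to 0.799) and ends that gain CpG sites lie lower for 5mC (r -0.905 to -0.897).

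The bins of the distal 5 Mb were spread more widely than the rest for 5mC in each tissue. The SD over distal bins was 0.0936 in the cortex, 0.0969 in the olfactory bulb and 0.110 in the cerebellum, against 0.0798, 0.0839 and 0.0867 over the other bins. For 5hmC the SD was 0.0510 against 0.0423 in cerebellum, 0.0466 against 0.0450 in olfactory bulb and 0.0403 against 0.0404 in cortex. Bins are not replicates and these spreads were not tested.

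Neuronal genes were among the distal bins with the highest 5hmC. The bin chr14:121000001-122000000, with Dock9, an activator of the small GTPase Cdc42, Farp1 and Ubac2, read 0.243 ± 0.0141, 0.217 ± 0.00409 and 0.197 ± 0.00339 in cortex, olfactory bulb and cerebellum. The bin chr11:118000001-119000000 with Rbfox3, the splicing factor known as the neuronal marker NeuN, read 0.204 ± 0.00942, 0.216 ± 0.00467 and 0.203 ± 0.00609.

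The lowest distal 5hmC lay in a cluster of olfactory receptor genes, which olfactory sensory neurons of the nose express, and in partial bins. The bin chr10:129000001-130000000, filled with olfactory receptor genes such as Olfr786, read 0.0840 ± 0.00533, 0.0549 ± 0.00375 and 0.0298 ± 0.00188. A 13224-base remnant at the end of chromosome 2 read 0.0398 ± 0.0243, 0.0528 ± 0.00551 and 0.0339 ± 0.00979, with cortex libraries from 0.0152 to 0.0638. The last bin of chromosome 13, with Gm21188, Gm20767 and BC147527, read 0.0633 ± 0.00758, 0.0418 ± 0.00572 and 0.0324 ± 0.00370.

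The lowest distal 5mC was at the Hoxc cluster, homeobox genes that pattern the body axis and lie in a CpG-dense domain. The bin chr15:102900001-103000000, with Hoxc5, Hoxc9 and Hoxc13 and 20.5 CpG sites per kb, read 0.0715 ± 0.0113 in the cortex, 0.0794 ± 0.0135 in the olfactory bulb and 0.0696 ± 0.00243 in the cerebellum. Its neighbour chr15:103000001-103100000, with Hoxc4, read 0.264 ± 0.0119, 0.279 ± 0.0110 and 0.272 ± 0.00508, and in both bins the tissues overlapped. Between these in level was chr13:120000001-120100000 with Gm21188 and Gm36079, at 0.110 ± 0.0160, 0.109 ± 0.00889 and 0.110 ± 0.0154. The highest 5mC was in partial bins without protein-coding genes, led by the last 2244 bases of chromosome 14 at 0.872 ± 0.0344, 0.852 ± 0.118 and 0.940 ± 0.0132.

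Bins were then compared between tissues with limma on log2(level/(1 - level)), with Benjamini-Hochberg adjustment over all bins of an assay (2581 of 1 Mb, 25664 of 100 kb) and a threshold of 0.05. In cerebellum against cortex, 87 of 95 distal bins were lower in 5hmC (91.6%, with 97.6% of all bins) and 2 were higher (2.11%, with 0.426%). In cerebellum against olfactory bulb, 82 were lower (86.3%, with 91.8%) and 4 higher (4.21%, with 1.20%). In olfactory bulb against cortex, 62 were lower (65.3%, with 67.7%) and 5 higher (5.26%, with 3.25%). With cortex and olfactory bulb fitted alone and the replicate number as a block, 67 were lower (70.5%, with 76.8% of all bins) and 8 higher (8.42%, with 5.19%). The shares of lower distal bins were near those of all bins, the higher calls were few in number, and the median change of the distal bins was -0.81, -0.60 and -0.21 on the log2 scale beside -0.97, -0.72 and -0.24 for all bins. With each library centred on its median, 56 distal bins were higher and 29 lower in cerebellum against cortex, 56 and 29 against olfactory bulb, and 38 and 28 in olfactory bulb against cortex. The same centring called 50.3% higher and 40.1% lower, 50.9% and 39.1%, and 36.2% and 33.0% of all bins.

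5mC gave the mirror image. In cerebellum against cortex, 645 of 950 distal bins were higher (67.9%, with 71.9% of all bins) and 44 lower (4.63%, with 4.44%). In cerebellum against olfactory bulb, 290 were higher (30.5%, with 35.3%) and 91 lower (9.58%, with 7.69%). In olfactory bulb against cortex, 342 were higher (36.0%, with 37.6%) and 15 lower (1.58%, with 2.18%). Centred on the library medians these became 189 higher and 264 lower, 172 and 216, and 82 and 108, beside 25.7% and 24.3%, 22.1% and 21.3%, and 8.81% and 9.90% of all bins. The counts that involve the olfactory bulb depended on single libraries: olfactory bulb against cortex gave 106 higher without the first olfactory bulb library and 164 without the second, and cerebellum against olfactory bulb gave 160 without the second olfactory bulb library and 148 without the first cerebellum library. The lower count of olfactory bulb against cortex fell to 8 and 4 without the first and second olfactory bulb library. The 91 of cerebellum against olfactory bulb fell to 58, 60 and 53 without the first or second olfactory bulb or the second cerebellum library. Shares over all bins are not given for these fits, so the counts describe only the dependence on single libraries.

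The order of the 3 tissues held in most distal bins but less than completely. Cortex had the highest 5hmC in 80 of 95 (84.2%, with 88.5% of all bins) and the cerebellum the lowest in 88 (92.6%, with 96.6%). For 5mC the cerebellum was highest in 668 of 950 (70.3%, with 73.6%) and cortex lowest in 733 (77.2%, with 78.5%).

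The promoters of 4 genes are shown because bins over these genes were among those with the largest changes between the tissues. The windows run from 250 bases before to 50 after the start that RefSeq lists in mm10, on the strand of the gene, with CpG sites in capitals. Rbfox3 (chr11:118760992-118761291, minus strand) and Fgf14 (chr14:124192497-124192796, minus strand) are listed at starts inside the annotated gene, and Lrrc7 (chr3:158561712-158562011, minus strand) and Tmem196 (chr12:119945877-119946176, plus strand) near its first base. The Tmem196 window lies in the bin inward of the last 1 Mb bin of chromosome 12, which is the one with the large 5hmC change.
Rbfox3: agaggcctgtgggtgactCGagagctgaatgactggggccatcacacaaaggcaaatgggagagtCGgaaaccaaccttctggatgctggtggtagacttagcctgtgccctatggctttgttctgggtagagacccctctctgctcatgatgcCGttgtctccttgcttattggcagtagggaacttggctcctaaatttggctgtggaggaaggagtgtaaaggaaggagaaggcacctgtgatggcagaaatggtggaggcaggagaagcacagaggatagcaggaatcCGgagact
Lrrc7: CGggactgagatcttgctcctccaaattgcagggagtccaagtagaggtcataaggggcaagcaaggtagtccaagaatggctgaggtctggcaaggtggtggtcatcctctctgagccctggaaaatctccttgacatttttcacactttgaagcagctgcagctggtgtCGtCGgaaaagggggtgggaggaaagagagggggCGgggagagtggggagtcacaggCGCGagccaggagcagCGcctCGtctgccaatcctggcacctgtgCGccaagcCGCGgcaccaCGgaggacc
Fgf14: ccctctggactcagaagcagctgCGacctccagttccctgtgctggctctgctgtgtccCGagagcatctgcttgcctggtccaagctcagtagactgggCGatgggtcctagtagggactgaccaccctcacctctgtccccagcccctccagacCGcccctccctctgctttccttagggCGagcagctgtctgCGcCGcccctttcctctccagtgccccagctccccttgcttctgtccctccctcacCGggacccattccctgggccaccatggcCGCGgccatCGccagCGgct
Tmem196: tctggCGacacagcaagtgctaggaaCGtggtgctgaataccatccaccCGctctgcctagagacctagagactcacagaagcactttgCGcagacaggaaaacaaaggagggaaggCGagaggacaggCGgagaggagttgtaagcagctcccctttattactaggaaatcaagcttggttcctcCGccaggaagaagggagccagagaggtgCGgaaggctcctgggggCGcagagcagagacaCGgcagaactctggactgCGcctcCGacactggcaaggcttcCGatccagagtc

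The windows held 4, 12, 12 and 13 CpG sites, where the median of 32851 mouse promoter windows of this length was 7 and 94.6% held at least 1. The Rbfox3 window was thus poor in CpG sites and the other 3 were above the median. A 100 kb bin cannot resolve the level of the window itself.

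Rbfox3 had the largest loss of 5mC in cerebellum against cortex among distal bins. In chr11:118800001-118900000 the cortex libraries read 0.533, 0.528 and 0.514, the olfactory bulb 0.506 and 0.507, and the cerebellum 0.214 and 0.214. The cerebellum lay below both other tissues, with a log2 difference of -2.02 ± 0.12 (SE) against cortex (limma adjusted p = 3.61e-54). The bins chr11:118600001-118700000 and chr11:118700001-118800000, also inside Rbfox3, had log2 differences of -1.60 and -1.63 against cortex. In the 1 Mb bin around them the cortex and cerebellum libraries overlapped in 5hmC, where 97.6% of all bins were called lower in cerebellum. That bin holds 12 protein-coding genes and cannot resolve 5hmC inside Rbfox3.

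Lrrc7, which encodes the postsynaptic density protein densin, moved the opposite way. In chr3:158400001-158500000 the libraries read 0.621, 0.626 and 0.577 in cortex, 0.572 and 0.593 in olfactory bulb, and 0.843 and 0.820 in cerebellum. The cerebellum was higher by 1.67 ± 0.12 on the log2 scale against cortex (limma adjusted p = 1.93e-38) and by 1.83 ± 0.13 against olfactory bulb (limma adjusted p = 2.05e-38). 5hmC of the 1 Mb bin chr3:158000001-159000000 was 0.178, 0.192 and 0.171 in cortex, 0.188, 0.205 and 0.199 in olfactory bulb and 0.0626, 0.0656 and 0.0680 in cerebellum. Here the 5hmC difference of cerebellum against olfactory bulb was -1.81 on the log2 scale (limma adjusted p = 3.64e-131).

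Fgf14, which encodes a partner of voltage-gated sodium channels, ends chromosome 14 and had the largest 5hmC gain in cerebellum. The bin chr14:124000001-125000000 read 0.177, 0.194 and 0.159 in cortex, 0.159, 0.170 and 0.166 in olfactory bulb, and 0.249, 0.238 and 0.244 in cerebellum. The cerebellum was higher than cortex by 0.59 ± 0.073 on the log2 scale (limma adjusted p = 9.02e-16) and than olfactory bulb by 0.71 (limma adjusted p = 1.29e-21). For 5hmC the estimated spread was in effect shared by all bins, which gave each the same SE, so a small partial bin is credited with the precision of a full one. The 5mC fit also rested mostly on a shared spread, with 905 prior against 4 residual degrees of freedom. Its SEs were therefore nearly alike, and the same limit applies to the 5mC calls.

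Other genes separated the tissues in their own ways. The bin of Pard3, a cell polarity gene, on chromosome 8 fell in 5hmC from 0.235 ± 0.0103 in cortex to 0.176 ± 0.00841 in olfactory bulb and 0.107 ± 0.00559 in cerebellum. The bin of Cdh4, which encodes R-cadherin, and Taf4 on chromosome 2 was higher in olfactory bulb (0.230 ± 0.00894) than in cortex (0.198 ± 0.0101), a log2 difference of 0.28 (limma adjusted p = 0.000338). The last bin of chromosome 7, with the lysosomal channel gene Tpcn2 and the receptor genes Mrgprd and Mrgprf, was lower in olfactory bulb (0.126 ± 0.00360) than in cortex (0.188 ± 0.00724) and cerebellum (0.154 ± 0.00798). The last bin of chromosome 17 with Mettl4 was lower in olfactory bulb than in cortex with a log2 difference of -0.83 (limma adjusted p = 1.77e-27). The bin of Tmtc1, Far2 and Ipo8 on chromosome 6 went from 0.189 ± 0.0113 in cortex to 0.0680 ± 0.00175 in cerebellum, and the last 29022 bases of chromosome 12, holding the end of Tmem196, from 0.189 ± 0.0324 to 0.0528 ± 0.00911. On chromosome 12 the bin of Ptprn2 and Rapgef5 was 0.17 higher on the log2 scale in olfactory bulb than in cortex, a call that was lost without cortex library 1 or 3 or olfactory bulb library 1 or 2 (limma adjusted p 0.0625 to 0.103).

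Among 5mC bins, olfactory bulb stood above cortex at Dock9 on chromosome 14 (0.726 ± 0.00572 against 0.540 ± 0.0139), at the semaphorin receptor gene Nrp1 on chromosome 8 (0.642 ± 0.00714 against 0.480 ± 0.0432) and at Myrip, a Rab27 effector, on chromosome 9 (0.652 ± 0.0280 against 0.497 ± 0.0241). The cerebellum was near cortex at Dock9, with 0.565 ± 0.00902, and near olfactory bulb at Nrp1 and Myrip, with 0.639 ± 0.00395 and 0.672 ± 0.0328. The largest falls in olfactory bulb against cortex were smaller. At Cdca7l and Dnah11 on chromosome 12 the level went from 0.678 ± 0.00343 to 0.576 ± 0.0362, at Spats2 and Dnajc22 on chromosome 15 from 0.689 ± 0.0365 to 0.607 ± 0.0190, and at Sec14l1 and Sept9 on chromosome 11 from 0.441 ± 0.0129 to 0.361 ± 0.0140. The Spats2 call was lost when all bins were kept with limited levels (limma adjusted p = 0.0671) and the Sec14l1 call without the second olfactory bulb library (limma adjusted p = 0.0530). Ablim1, an actin-binding gene on chromosome 19, read 0.577 ± 0.00378 in the cortex, 0.677 ± 0.0100 in the olfactory bulb and 0.377 ± 0.0123 in the cerebellum. The 1213 bases that end chromosome 8 gave a call in cerebellum against cortex as well, at 0.813 ± 0.00103 against 0.579 ± 0.0355.

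Long genes filled many distal bins, and 28 protein-coding genes of at least 300 kb held at least 1 distal 100 kb bin wholly. 5mC inside them was lowest in cortex for 20, in olfactory bulb for 6 and in cerebellum for 2, and highest in cerebellum for 22, in olfactory bulb for 5 and in cortex for 1. Over all 100 kb bins cortex was lowest in 78.5%, olfactory bulb in 10.1% and cerebellum in 11.4%. The cerebellum was highest in 73.6% of them, olfactory bulb in 24.3% and cortex in 2.13%, so the leading order is not particular to long genes. The widest range of tissue means was 0.264 at Rbfox3, followed by 0.216 at Lrrc7, 0.151 at the neuronal adhesion gene Dscam, and 0.134 at Pard3 and at the postsynaptic scaffold gene Shank2. The narrowest were 0.0257 at the neuronal adhesion gene Negr1 and 0.0276 at Pcca, a subunit of propionyl-CoA carboxylase, before Mtus2, Ccdc7a and the axonemal dynein gene Dnah11. At Negr1 the tissues read 0.630 ± 0.00999, 0.611 ± 0.0105 and 0.636 ± 0.00758.

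**Figure D5:**
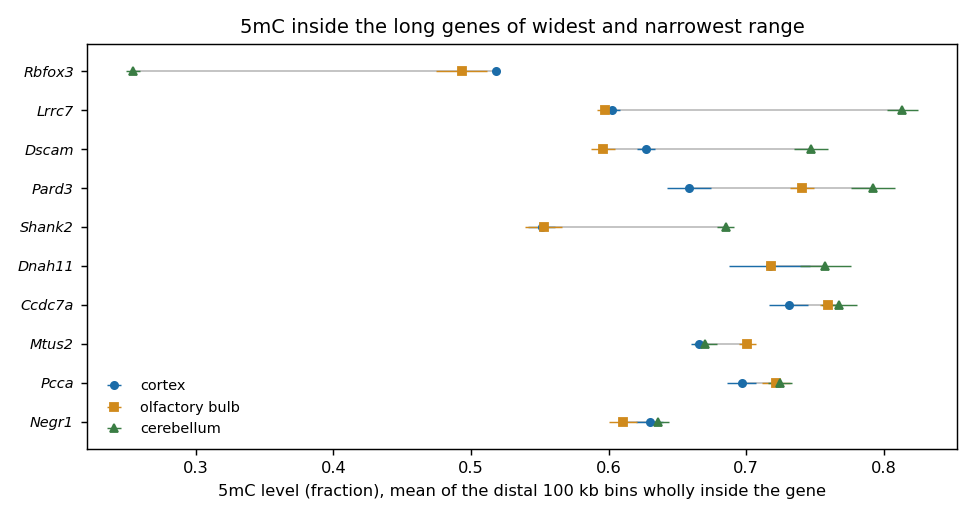
5mC level (fraction, mean of the distal 100 kb bins wholly inside the gene) of the 5 long genes with the widest and the 5 with the narrowest range of tissue means, out of 28, with points for the 3 tissue means and bars for the SD between libraries. Rbfox3 spans the widest range, down to 0.254 in cerebellum, while Lrrc7 reads 0.814 there against 0.602 in cortex, and Negr1 the narrowest.

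Gene families at the ends carried more 5mC than their neighbours in most cases. The 67 olfactory receptor genes of distal chromosome 10 lay in 14 bins with 0.734 ± 0.0139 in the cortex, 0.767 ± 0.00119 in the olfactory bulb and 0.774 ± 0.00910 in the cerebellum, against 0.618, 0.648 and 0.667 in the other distal bins of that autosome. The 16 of chromosome 7 read 0.735 ± 0.0189, 0.767 ± 0.00438 and 0.760 ± 0.0113 against 0.622, 0.653 and 0.643. The 27 keratin genes of chromosome 15 read 0.671 ± 0.0178, 0.704 ± 0.00217 and 0.705 ± 0.0109 against 0.562, 0.588 and 0.607. The 51 Ighv genes of chromosome 12, variable segments of the antibody heavy chain, were higher in cortex and olfactory bulb (0.703 ± 0.0137 and 0.710 ± 0.00431 against 0.658 and 0.685) and lower in cerebellum (0.673 ± 0.00387 against 0.741). The bins of the imprinted cluster on chromosome 7, where all 15 listed genes including H19, Igf2 and Kcnq1 were found, read 0.648 ± 0.0219, 0.674 ± 0.00219 and 0.688 ± 0.00959 against 0.625, 0.658 and 0.640. Members of a family share bins and sequence, so these levels are a description.

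The last protein-coding gene of each autosome ended 1016 to 195255 bases from the last assembled base. Nearest was Wls, a carrier of secreted Wnt proteins on chromosome 3, whose bins read 0.661 ± 0.0248 in the cortex, 0.649 ± 0.00215 in the olfactory bulb and 0.807 ± 0.00602 in the cerebellum for 5mC. 5hmC of the last 1 Mb bin of chromosome 3, which also holds Depdc1a and Rpe65, was 0.119 ± 0.00966, 0.107 ± 0.00324 and 0.0410 ± 0.000899. The cerebellum was lowest in 5hmC in 96.6% and highest in 5mC in 73.6% of all bins, so this order is not particular to Wls. Mrgprd on chromosome 7 was the reverse for 5mC, with 0.687 ± 0.0381, 0.711 ± 0.0160 and 0.470 ± 0.0107. Rfc3, a subunit of the replication clamp loader on chromosome 5, read 0.743 ± 0.0287, 0.758 ± 0.00331 and 0.751 ± 0.0174, with overlapping tissues. A630089N07Rik on chromosome 16 had the highest 5mC of the 19 in cortex, at 0.807 ± 0.0197, and Gm21836 on chromosome 9 the lowest, at 0.567 ± 0.0390.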

How the data were processed

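The data were 9 TAB-seq and 7 oxBS-seq libraries; 6 RNA-seq samples were not analysed here. Per the labels and the methods of the study, the authors mapped read pairs to mm10 with Bismark, used a binomial model per CpG site with a minimum coverage of 5, and deposited levels as a fraction of modified reads per 1 Mb bin (5hmC) or 100 kb bin (5mC). How sites were combined into a bin, and the depth per bin, are not given in the sources used here. The study states only an average genomic coverage per tissue. Groups and replicate numbers came from the labels; for oxBS-seq of olfactory bulb and cerebellum the deposited library names carry other replicate numbers.

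Bins at 0 or 1 in any library were left out. Bin means were taken per autosome and averaged over 19 autosomes within each library. Distal minus rest and outermost minus next were tested over libraries with two-sided exact sign-flip permutation tests. These cannot go below 0.25 for 3 libraries or 0.5 for 2, so no p is given for 1 tissue. Over all libraries of an assay they take the libraries as independent, and whether tissues share mice is not established. Their p measures the spread between libraries and not that between autosomes. Tissues were compared with two-sided exact permutation tests, and bins with limma 3.58.1 (R 4.3.3) on log2(level/(1 - level)), 1 fit over 3 tissues per assay, with Benjamini-Hochberg adjustment over all bins. The limma script was tested on simulated data. Python 3.11.15, numpy 2.4.6 and pandas 2.3.3 were used. GC, CpG sites, repeats and genes came from the mm10 reference and its annotation, and promoter windows from RefSeq. Repeats are the lower-case bases of that reference.

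Bins were named as the 3 highest, 3 lowest, and the 3 largest rises and falls per pair of tissues among those past the threshold with no overlap between libraries, with up to 3 protein-coding genes each. Also named were the 3 extreme autosomes at each side, the last protein-coding gene of each autosome, genes of at least 300000 bases (the 5 widest and 5 narrowest), families with 10 or more members, and an imprinted cluster. Some items that this rule names are not reported here. The members and lists were chosen with earlier results of these data known. Cortex and olfactory bulb TAB-seq libraries with the same replicate number deviated together, with correlations of deviations in distal bins of 0.238, 0.483 and 0.184. Their differently numbered libraries ran from -0.234 to -0.0191. These numbers were taken to pair the 2 tissues, from the data alone. Across all tissues, differently numbered TAB-seq libraries reached 0.516 (cerebellum 3 with cortex 1), so such correlations do not establish the pairing. Same-number correlations of cerebellum with either tissue ran from -0.270 to 0.00846 and those of oxBS-seq from -0.167 to -0.00853, and were not taken to pair samples. Alternatives covered the window, averaging, scale, filter, centring, sequence content and each library left out.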

Additional observations from a re-analysis of the deposited data

Results flagged for a closer look

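On 5 autosomes the distal minus rest had opposite signs in every library of 2 tissues. These are differences between tissues that were not tested, since the design gives no p below 0.1 for 3 against 3.

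On chromosome 2, 5hmC at the end was higher than in the rest in cerebellum (0.0122 ± 0.00180) and lower in cortex (-0.0226 ± 0.00624), a difference of 0.0348. On chromosome 8 it was lower in olfactory bulb (-0.00419 ± 0.000711) and higher in cortex (0.0166 ± 0.000753) and cerebellum (0.0175 ± 0.00139), so that olfactory bulb minus cortex was -0.0208 and cerebellum minus olfactory bulb 0.0217. On chromosome 12 it was lower in cerebellum (-0.00777 ± 0.00380) and higher in cortex (0.0126 ± 0.00585) and olfactory bulb (0.0279 ± 0.00250), with cerebellum minus cortex at -0.0204 and cerebellum minus olfactory bulb at -0.0357. On chromosome 15 it was higher in cerebellum (0.0157 ± 0.00122) and lower in cortex (-0.00568 ± 0.000981) and olfactory bulb (-0.00291 ± 0.000986), with differences of 0.0214 and 0.0186.

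For 5mC, the end of chromosome 3 was higher than its rest in cerebellum (0.00678 ± 0.000472) and lower in cortex (-0.00454 ± 0.00415) and olfactory bulb (-0.0208 ± 0.00312), so that cerebellum minus cortex was 0.0113 and cerebellum minus olfactory bulb 0.0275. The last bins of chromosomes 2 and 12 hold 13224 and 29022 assembled bases for 5hmC. The part of these partial bins in the values above was not tested.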

How the results depend on the processing

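The distal 5mC shortfall and the low 5hmC of the outermost 1 Mb kept their sign and side of the threshold under every alternative that gave a value; leaving out the last bin gives none for the outermost 1 Mb in 5hmC. 5hmC distal minus rest did not. It was 0.00212 with medians over bins (cortex -0.000564, olfactory bulb -0.000471), 0.0217 as a log2 ratio (-0.00410, -0.00480), 0.00312 without the first 5 Mb (cortex -0.000136), 0.000969 without chromosome 14 (-0.00115, -0.00114), -0.00294 with content removed (-0.00462, -0.00401, cerebellum -0.000180) and -0.0227 for 2 Mb (-0.0234, -0.0297, -0.0149). Its olfactory bulb minus cortex was -0.00638 for 2 Mb, -0.000709 as a ratio and -0.00173 with the median over autosomes, and that of 5mC -0.00134 with medians, -0.000153 with bins pooled, -0.00561 on the log2(level/(1 - level)) scale, -0.00237 for 10 Mb, and -0.000432 to 0.00101 without 1 library. 5mC outermost minus next became -0.0126 with content removed (-0.0111, -0.00658, -0.0209). The sum of both marks moved to -0.0302, -0.0324 and -0.0294 for 2 Mb and -0.0324, -0.0345 and -0.0271 with medians. The medians over autosomes, weighting by assembled bases, leaving out chromosome 14 and the content fit of the outermost 1 Mb were chosen after seeing the data. Cerebellum minus the other tissues in distal minus rest kept its sign and moved by over 1.5 times with content removed (values in the report), for 10 Mb in 5hmC (0.00419 and 0.00270) and for 2 Mb (0.0149 for 5hmC against olfactory bulb, -0.00285 and -0.00454 for 5mC), and with medians over bins (-0.00386 and -0.00252) or over autosomes (5hmC against cortex 0.00547, 5mC -0.00284 and -0.00514). With all bins kept, distal minus rest was -0.0123 for 5mC and 0.00731 for 5hmC. The cause of these changes was not tested, and no alternative removed repeats.

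Counts of called bins: centring gave the values in the report (5hmC 38, 28, 56, 29, 56 and 29; 5mC 82, 108, 189, 264, 172 and 216), the fraction scale 8 instead of 5 higher 5hmC bins in olfactory bulb against cortex, and keeping all bins 190 instead of 342 for 5mC. With 5mC averaged into 95 bins of 1 Mb the counts were 55 and 0, 76 and 2, and 39 and 9. Of all 1 Mb bins, 60.8% and 0.697%, 82.5% and 3.02%, and 49.8% and 7.36% were called in the same order. Leave-one-out ranges were 2 to 9 higher for 5hmC in olfactory bulb against cortex, 106 to 358 higher and 4 to 22 lower for 5mC in the same pair, and 148 to 344 higher and 53 to 105 lower in cerebellum against olfactory bulb. The replicate numbers were taken to pair cortex with olfactory bulb for 5hmC, which the data do not establish. The block in a fit of these 2 tissues, added after seeing the data, gave 8 instead of 5 higher bins and 67 instead of 62 lower (shares in the report). With the number as a block over 3 tissues, the 5mC counts were 266 and 22, 596 and 61, and 349 and 109. Of all bins, 29.2% and 3.18%, 68.2% and 6.26%, and 43.5% and 10.1% were called in the same order. With this block no call on a mean changed and no count moved by over 1.5 times. Depth per bin is unknown, so differences within the spread between libraries cannot be resolved.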

Other observations

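Chromosome X was outside the autosomes compared above. Its last 5 bins of 1 Mb read 0.100 ± 0.00361 for 5hmC in the cortex, 0.0897 ± 0.00531 in the olfactory bulb and 0.0491 ± 0.00275 in the cerebellum, and were higher than the rest of the chromosome by 0.0236 ± 0.00321, 0.0259 ± 0.00410 and 0.00920 ± 0.00252. 5mC over the 45 bins of 100 kb used there differed from the rest by -0.0275 ± 0.00298 in the cortex, -0.0226 ± 0.00623 in the olfactory bulb and 0.00169 ± 0.00230 in the cerebellum. These values stand for 1 chromosome and were not tested.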
